A study of Mus musculus with 14 samples.

Results

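Intraepithelial lymphocyte transcripts were followed as the messages of 37 genes of T and NK cells, taken by symbol from a list of such genes as a gauge of these cells among sorted intestinal stem cells. All 37 were found among the 55335 genes of each of the 2 deposited count tables. They fall into 5 groups by role: the T cell receptor and CD3 complex with 8 genes, T cell receptor signalling with 3, coreceptors and surface receptors with 11, cytotoxic effectors and chemokines with 8, and genes shared by most leukocytes with 7. Genome positions, given for the genes described most closely, are those of GENCODE release M21 on GRCm38.

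Intraepithelial lymphocytes are T cells that live between the epithelial cells of the gut lining, together with some innate lymphocytes. Many of them carry the CD8 coreceptor, hold onto E-cadherin on epithelial cells through the integrin subunit Itgae, and store granzymes, the proteases with which cytotoxic lymphocytes kill target cells. Their antigen receptor pairs alpha with beta chains or gamma with delta chains and signals through the CD3 chains, which the kinase Lck phosphorylates and the kinase Zap70 then binds.

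The libraries came from mouse intestinal cells sorted by flow cytometry for EGFP expressed from the Lgr5 locus, which marks the stem cells of the crypt. In the Chrm3 experiment all mice were Lgr5CreERT2-IRES-GFP; Chrm3flox/flox, so that WT mice too carried the floxed gene for the M3 muscarinic acetylcholine receptor. The groups were KO ES, KO NT, WT ES and WT NT (n = 2 each), where KO mice had received tamoxifen and WT mice vehicle for 3 days before the ES procedure. ES and NT are the abbreviations of the labels, deletion and tamoxifen changed together, and no age is stated for these mice. Cre in this allele is driven from the Lgr5 locus, which directs deletion to Lgr5-expressing cells and their descendants. In the ageing experiment the mice were Lgr5CreERT2-IRES-GFP, 18 months old (old) or 2 months old (young), with n = 3 each. Separate animals behind the libraries are not stated in the labels, and p-values then reflect library-to-library spread, which may be technical.

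Libraries held 32.4 to 35.8 M counts in the ageing table and 26.7 to 36.9 M in the Chrm3 table. Levels are given as CPM (counts per M counts of the library) after TMM scaling, at which 3 counts in a library amount to 0.0808 to 0.112 CPM. The mitochondrial share was highest in KO NT replicate 2, at 8.74%, and lay between 6.12% and 7.53% in the other libraries. Chrm3 itself had 256 and 213 counts in KO ES, 343 and 254 in KO NT, 357 and 291 in WT ES, and 355 and 386 in WT NT. It was lower in KO under ES (-0.67 ± 0.17, adjusted p = 0.0399) and did not pass under NT (-0.51 ± 0.17, adjusted p = 0.133). Because it is unknown here which exons are floxed, gene-level counts are only a weak check on the KO label. The 10 stem cell marker genes summed to 11810.2 to 14937 CPM in old, 12814 to 13285 CPM in young and 11004 to 16313 CPM in the Chrm3 libraries.

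Lymphocyte transcripts were a small part of these libraries. The 37 genes summed to 329.9, 320.3 and 379 CPM in old and 138, 119 and 126 CPM in young libraries, and to 164 to 184 CPM in KO ES, 152 to 175 in KO NT, 162 to 165 in WT ES and 174 to 176 CPM in WT NT. The 2 tables were scaled on their own, and tests were made within a table. Per length of exon, as RPKM, which is CPM per kilobase, Gzma, which encodes granzyme A, had the highest mean of the 37 genes in all 6 groups. Its mean was 71.0 RPKM in old and 12.5 RPKM in young libraries. Next in old libraries came Gzmb with 15.5 RPKM, the chemokine gene Ccl5 with 14.4 RPKM, and Cd7 with 11.4 RPKM, of which Gzmb and Ccl5 did not differ beyond their SD (3.31 and 0.501 RPKM, n = 3).

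The makeup of the signal was read from a few markers of lymphocyte subsets. Of these, Cd8b1, Cd4, Ncr1 and Klrb1c were picked after their values were seen. Cd8a, the alpha chain of CD8, had 18.4, 19.2 and 26.0 CPM in old libraries, against 4.23, 2.93 and 3.13 CPM in young libraries, while Cd8b1, the beta chain, stayed at 0.362 to 0.531 CPM in old and 0.212 to 0.728 CPM in young. CD8 made of alpha chains alone is a known feature of many intraepithelial lymphocytes, and the alpha-beta form one of conventional cytotoxic T cells. The coreceptor gene Cd4 had 30, 18 and 6 counts in old and 4, 0 and 0 counts in young libraries and was not tested. Of genes that define NK cells, Ncr1 had no count in any ageing library, and Klrb1c had 4, 3 and 4 counts in old and 8, 6 and 0 counts in young libraries. The part of NK cells in the signal was not tested. Genes that T and NK cells share, such as Klrd1 and the granzymes, do not tell the 2 kinds of cell apart.

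The comparison of old with young mice asked how age bears on these transcripts in sorted Lgr5-positive cells. Most of them were higher in old mice. Gzma had 70.2, 66.9 and 77.3 CPM in old libraries, against 15.0, 9.50 and 13.3 CPM in young libraries (2.50 ± 0.14, adjusted p = 7.06e-06). Of the 35 genes with enough counts to test, 27 rose, 0 fell and 8 did not pass, against 7.35% of all 16807 tested genes called in either direction and 4.18% called higher. Of the 35, 27 had enough counts in both groups to pass the count filter through either, and 22 of those rose. The other 8 (Trbc1, Zap70, Cd8b1, Klrd1, Klre1, Prf1, Fasl and Xcl1) passed it through the old libraries alone, so that a gene as low in old as in young would not have been tested, and 5 of them rose. With no count filter, 22 of the 37 were called. Here and below, values before an adjusted p are log2 fold changes with their standard error, the test is edgeR's quasi-likelihood test, and a gene is called at an adjusted p under 0.05, adjusted over all tested genes. The median log2 fold change of the 35 genes was 1.96, which is 3.88-fold, while that of all tested genes was -0.00. In 30 of the 37 genes every old library was above every young one, against 13.2% of tested genes. Of the 27 that rose, 15 did so more than 4-fold and another 11 more than 2-fold. In a sorted bulk sample, more cells of a type and more RNA per cell cannot be told apart. No batch of sorting or sequencing is given in the labels, so one that followed age cannot be told apart from it.

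**Figure D1:**
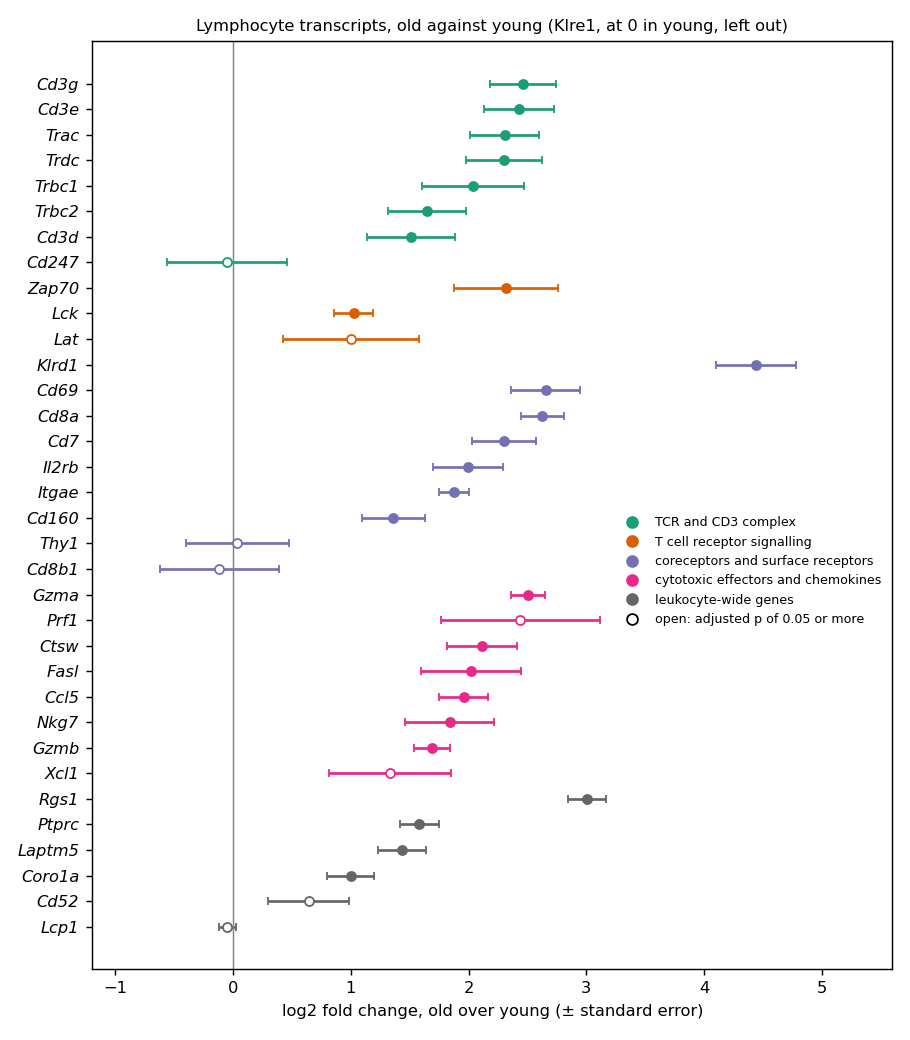
Log2 fold change of each tested lymphocyte transcript, old over young (n = 3 each), with its standard error as a bar; genes are grouped by role from top to bottom and open circles mark genes that did not pass. The filled points all lie to the right of 0, while Cd247, Cd8b1, Thy1 and Lcp1 lie at it; Klre1 is left out because it had no count in young libraries.

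The T cell receptor and CD3 complex had 7 of 8 genes higher in old mice. Cd3e, a CD3 signalling chain (chromosome 9, 44998740 to 45009627), had 7.54, 6.29 and 7.97 CPM in old libraries, against 2.06, 0.768 and 1.23 CPM in young libraries (2.43 ± 0.30, adjusted p = 0.000929). Cd3g, another CD3 chain, had 8.38, 8.66 and 7.91 CPM in old libraries, against 1.97, 0.768 and 1.79 CPM in young libraries (2.46 ± 0.28, adjusted p = 0.000579). In both, old and young libraries stood well apart. Cd3d, the third CD3 chain, was lower in level, with 1.93, 1.38 and 2.00 CPM in old libraries, against 0.907, 0.597 and 0.364 CPM in young libraries (1.51 ± 0.37, adjusted p = 0.0371). These 3 genes lie side by side on chromosome 9, between 44969572 and 45009627. The groups did not overlap in any of them, and old replicate 2 was the lowest old library for Cd3e and Cd3d. Cd3d did not pass without young replicate 2 or 3, without any of the old libraries, or without the count filter (adjusted p up to 0.140).

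The constant regions of the receptor chains rose as well. Trac, that of the alpha chain, had 3.59, 2.91 and 4.60 CPM in old libraries, against 0.968, 0.569 and 0.700 CPM in young libraries (2.31 ± 0.29, adjusted p = 0.00113). Trdc, that of the delta chain, had 2.83, 5.87 and 3.85 CPM in old libraries, against 0.817, 0.654 and 1.06 CPM in young libraries (2.30 ± 0.32, adjusted p = 0.00207). Old libraries were all above young ones in both, with old replicate 3 highest for Trac and old replicate 2 highest for Trdc. The beta chain genes Trbc1 and Trbc2 are near-identical copies, so the split of reads between them is uncertain. Trbc1 had 1.63, 2.14 and 1.97 CPM in old libraries, against 0.696, 0.171 and 0.532 CPM in young libraries (2.04 ± 0.43, adjusted p = 0.0177). Trbc2 had 2.29, 2.03 and 3.44 CPM in old libraries, against 1.09, 0.825 and 0.560 CPM in young libraries (1.65 ± 0.33, adjusted p = 0.0138). Old and young were apart in both, but Trbc1 did not pass without old replicate 1 or 2 or without the count filter (adjusted p up to 0.0686), and Trbc2 did not without young replicate 2 or without the count filter (up to 0.0605). The last member of the complex, Cd247, which encodes the zeta signalling chain, did not pass, with 0.301, 0.734 and 1.25 CPM in old libraries, against 0.847, 0.483 and 1.04 CPM in young libraries (-0.05 ± 0.51, adjusted p = 0.974). Its groups overlapped, and it lies over another annotated gene on the same strand, Gm16565, so its count is uncertain.

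T cell receptor signalling had 2 of 3 genes higher. Lck, the kinase held by CD4 and CD8, had 6.06, 7.20 and 6.53 CPM in old libraries, against 3.60, 3.04 and 3.11 CPM in young libraries (1.02 ± 0.16, adjusted p = 0.00443). Zap70, the kinase that binds phosphorylated CD3 chains, had 3.10, 2.91 and 2.59 CPM in old libraries, against 1.03, 0.199 and 0.504 CPM in young libraries (2.32 ± 0.44, adjusted p = 0.0102). Old and young did not overlap for either kinase, and Lck had the smaller fold change. Zap70 did not pass without old replicate 1 or without the count filter (adjusted p up to 0.0562). Lat, the adaptor that Zap70 phosphorylates, did not pass, with 1.39, 2.37 and 1.00 CPM in old libraries, against 1.66, 0.370 and 0.364 CPM in young libraries (1.00 ± 0.58, adjusted p = 0.374). Its groups overlapped as young replicate 1 was above old replicates 1 and 3, and it passed without that library.

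Coreceptors and surface receptors had 8 of 10 tested genes higher. Klrd1, Klre1 and Cd8b1 of these 10 passed the count filter through the old libraries alone, and Klrd1 and Klre1 had the largest changes of all. Cd8a (chromosome 6, 71373427 to 71379173), whose values are given above, changed by 2.63 ± 0.18, adjusted p = 2.49e-05. Itgae, the alpha subunit of the integrin that binds E-cadherin, had 18.7, 17.0 and 21.1 CPM in old libraries, against 4.99, 4.78 and 5.68 CPM in young libraries (1.88 ± 0.13, adjusted p = 2.42e-05). Cd69, a marker of activated and tissue-resident T cells, had 2.29, 3.19 and 2.38 CPM in old libraries, against 0.393, 0.426 and 0.420 CPM in young libraries (2.65 ± 0.30, adjusted p = 0.000521). None of these groups overlapped, and the young libraries lay within a narrow band for Itgae and Cd69. Cd7, an immunoglobulin-like protein of T and NK cells, had 12.5, 11.6 and 14.4 CPM in old libraries, against 3.93, 2.42 and 1.51 CPM in young libraries (2.30 ± 0.27, adjusted p = 0.000725). Il2rb, a receptor chain for T cell growth cytokines, had 7.96, 5.64 and 9.22 CPM in old libraries, against 1.97, 1.11 and 2.63 CPM in young libraries (2.00 ± 0.30, adjusted p = 0.00289). Cd160, a receptor of cytotoxic lymphocytes, had 2.53, 2.37 and 3.35 CPM in old libraries, against 0.998, 1.28 and 0.924 CPM in young libraries (1.36 ± 0.27, adjusted p = 0.0120). The spread within young libraries was wider for Cd7 and Il2rb than for Cd160, and old and young were apart in all 3 genes.

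The lectin-like receptors Klrd1, known as CD94, and Klre1 lie next to each other on chromosome 6 (129577905 to 129585827 for Klre1 and 129591782 to 129598775 for Klrd1), and both rose. Klrd1 had 5.40, 3.73 and 5.57 CPM in old libraries, against 0.333, 0.142 and 0.196 CPM in young libraries (4.44 ± 0.34, adjusted p = 4.90e-05). Klre1 had 38, 41 and 50 counts in old libraries and none in young libraries, which puts it at least 14.9-fold higher in old when each young library is set to 3 counts (adjusted p = 0.000691). For Klrd1, the young libraries held 11, 5 and 7 counts, so the size of its change rests on few counts there. Klrd1 and Klre1 were tested only because they passed the count filter through the old libraries, so their calls are not separate support for a rise. Cd8b1 (-0.12 ± 0.50, adjusted p = 0.935) and Thy1, a surface glycoprotein of mouse T cells (0.03 ± 0.44, adjusted p = 0.981), did not pass, and their groups overlapped. Cd2, an adhesion molecule, was not tested, with 5, 0 and 6 counts in old and 7, 0 and 5 counts in young libraries.

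**Figure D2:**
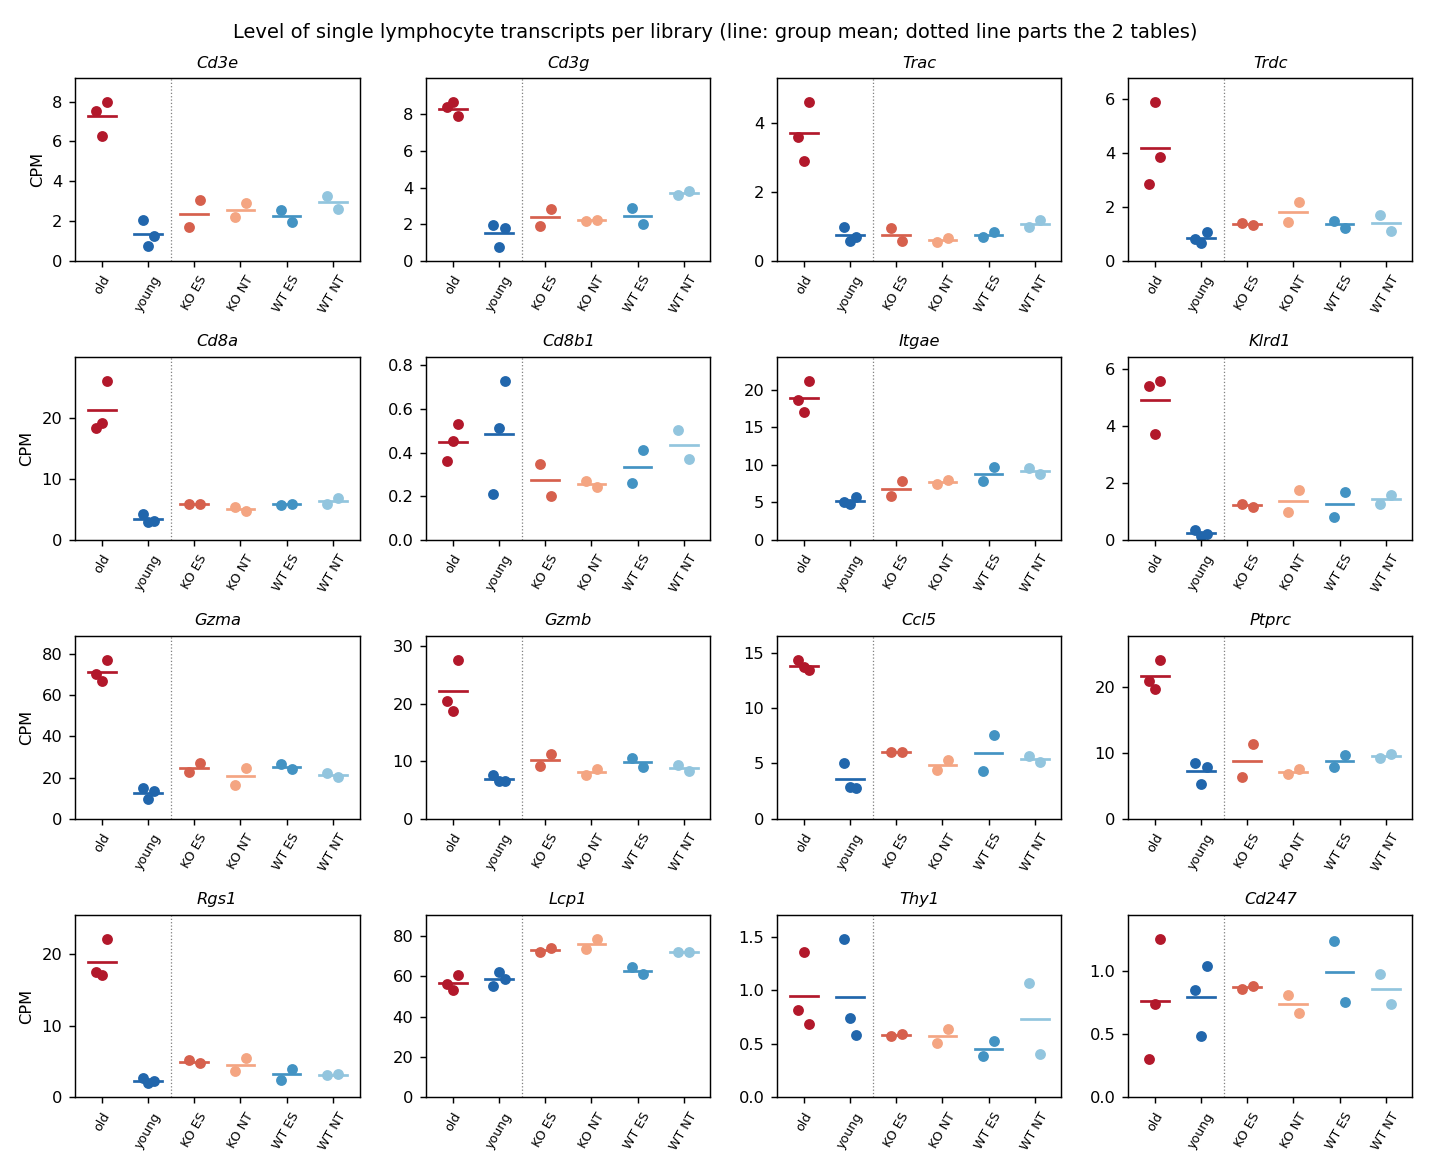
Level in CPM of 16 lymphocyte transcripts in every library, with a line at each group mean; old and young (n = 3 each) stand left of the dotted line and the Chrm3 groups (n = 2 each) right of it, scaled separately. Old libraries stand above the young ones in Cd3e, Cd8a, Itgae, Klrd1, Gzma, Ccl5, Ptprc and Rgs1, while Cd8b1, Lcp1, Thy1 and Cd247 overlap between old and young.

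Among cytotoxic effectors and chemokines 6 of 8 genes were higher. Gzma (chromosome 13, 113093825 to 113100981) is described above. Gzmb, which encodes granzyme B, had 20.4, 18.7 and 27.6 CPM in old libraries, against 7.56, 6.57 and 6.58 CPM in young libraries (1.69 ± 0.15, adjusted p = 0.000143). Ccl5, a chemokine stored by memory T cells, had 14.3, 13.7 and 13.4 CPM in old libraries, against 5.05, 2.87 and 2.77 CPM in young libraries (1.96 ± 0.21, adjusted p = 0.000433). Both groups of values were apart, with old replicate 3 highest for Gzmb. Nkg7, a granule membrane protein, had 3.95, 4.77 and 5.10 CPM in old libraries, against 2.30, 0.768 and 0.812 CPM in young libraries (1.84 ± 0.38, adjusted p = 0.0151). Ctsw, a cathepsin of cytotoxic lymphocytes, had 3.59, 4.06 and 5.44 CPM in old libraries, against 1.21, 1.19 and 0.616 CPM in young libraries (2.11 ± 0.30, adjusted p = 0.00211). Fasl, the ligand of the death receptor Fas, had 0.995, 0.762 and 0.969 CPM in old libraries, against 0.151, 0.284 and 0.224 CPM in young libraries (2.02 ± 0.43, adjusted p = 0.0170). Old and young did not overlap in these 3 genes either. Fasl rests on 33, 27 and 31 counts in old and 5, 10 and 8 counts in young libraries. It did not pass without any one of the young libraries or without old replicate 1 (adjusted p up to 0.0905). Fasl, Prf1 and Xcl1 passed the count filter through the old libraries alone. Nkg7 did not pass without young replicate 2 or without the count filter (adjusted p up to 0.0755). Prf1, the pore-forming perforin, did not pass, with 1.02, 1.04 and 0.969 CPM in old libraries, against 0.242, 0.313 and 0 CPM in young libraries (2.44 ± 0.68, adjusted p = 0.0567), although its groups did not overlap. Prf1 passed with DESeq2 (0.00671), limma-voom (0.0455) and a replicate block (0.0464), and without young replicate 3 (adjusted p = 0.0487). Xcl1, a chemokine, did not pass either, with 0.392 to 0.563 CPM in old and 0.121 to 0.308 CPM in young (1.33 ± 0.52, adjusted p = 0.168).

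Genes shared by most leukocytes had 4 of 6 tested genes higher. Ptprc, which encodes the pan-leukocyte surface phosphatase CD45, had 20.9, 19.8 and 24.1 CPM in old libraries, against 8.50, 5.29 and 7.89 CPM in young libraries (1.58 ± 0.17, adjusted p = 0.000378). Rgs1, a brake on G protein signalling in lymphocytes, had 17.5, 17.2 and 22.2 CPM in old libraries, against 2.75, 1.99 and 2.35 CPM in young libraries (3.00 ± 0.16, adjusted p = 7.06e-06). With 19.0 ± 2.80 CPM in old and 2.36 ± 0.381 CPM in young (SD, n = 3 each), Rgs1 stood apart from its young level by far more than the spread. Laptm5, a lysosomal protein of blood cells, had 5.79, 5.76 and 8.03 CPM in old libraries, against 2.78, 2.33 and 2.13 CPM in young libraries (1.43 ± 0.20, adjusted p = 0.00222). Coro1a, an actin regulator of blood cells, had 3.68, 4.74 and 4.31 CPM in old libraries, against 2.09, 2.02 and 2.27 CPM in young libraries (1.00 ± 0.20, adjusted p = 0.0123). Young libraries varied little for Laptm5 and Coro1a, and both had smaller fold changes than Rgs1. Coro1a did not pass without young replicate 2 (adjusted p = 0.0595). Cd52, a small surface glycoprotein, did not pass (0.64 ± 0.34, adjusted p = 0.334), and Ptprcap, which binds CD45, was not tested. Coro1a and Cd52 overlap genes on the opposite strand, as do Cd3e, Cd247, Trdc, Cd7, Cd160, Ctsw, Xcl1, Ptprcap and Lcp1. How strand was used in counting is not known here, so reads of such partners may be included.

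Lcp1, which encodes the actin-bundling protein L-plastin, had the highest CPM of the list in young libraries and did not move with the rest. It had 56.2, 52.9 and 60.4 CPM in old libraries, against 55.1, 61.8 and 58.6 CPM in young libraries (-0.05 ± 0.07, adjusted p = 0.766), and its groups overlapped. It made up much of the summed level in young libraries. Without it the other 36 genes summed to 274, 267 and 319 CPM in old and 82.9, 56.8 and 67.2 CPM in young libraries, a log2 ratio of the group means of 2.06, against 1.43 with it. Which cells carry the Lcp1 transcript was not tested.

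**Figure D3:**
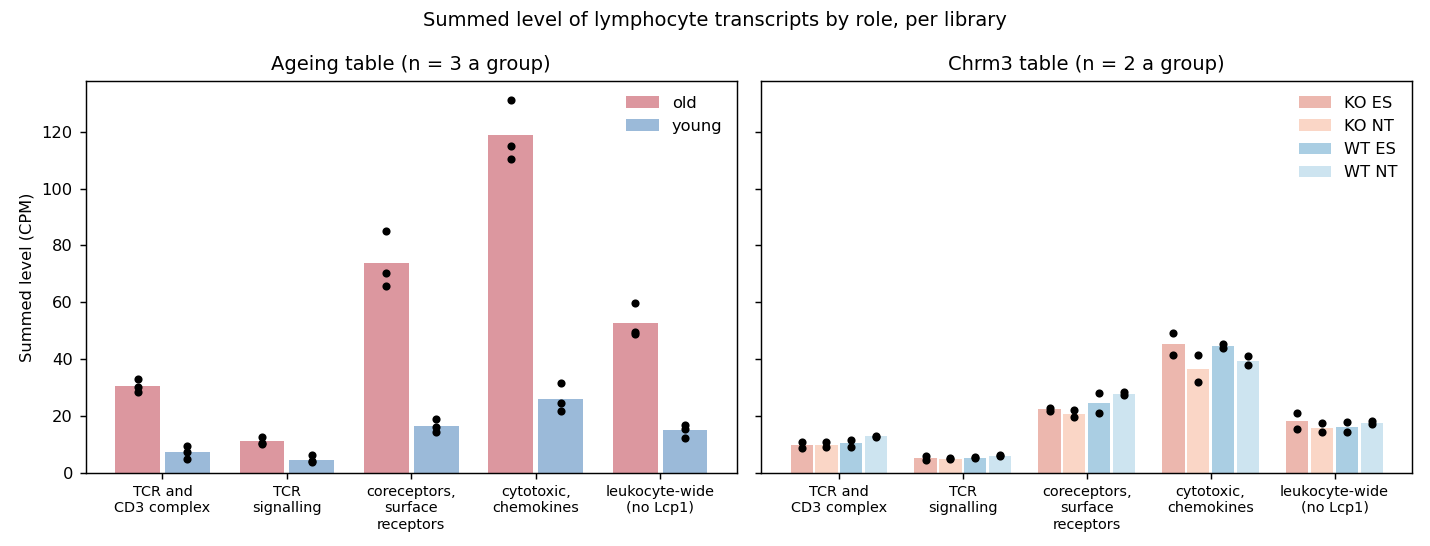
Summed level in CPM of the lymphocyte transcripts by role, with a point per library and a bar at the group mean; the ageing groups (n = 3 each) are on the left, the Chrm3 groups (n = 2 each) on the right, and Lcp1 is left out of the leukocyte-wide genes. In each role the old libraries stand above all young ones, and the Chrm3 groups lie close to each other.

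The share of each role in the summed level was computed without Lcp1. Cytotoxic effectors and chemokines made up 41.1% to 42.0% in old and 36.6% to 38.1% in young libraries, and Gzma alone 24.2% to 25.6% in old and 16.7% to 19.8% in young. The T cell receptor and CD3 complex made up 10.3% to 11.2% in old and 8.51% to 11.3% in young, and receptor signalling 3.17% to 4.67% in old and 5.92% to 7.59% in young. Gzma took a larger share and receptor signalling a smaller one in every old library than in any young one. These shares were not tested, and each is taken from the same few libraries.

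Ratios within a library were compared for 3 gene pairs chosen after their values were seen, per length, by two-sided exact permutation tests for which 0.1 is the smallest p that 3 against 3 libraries allow, so that none could pass 0.05. Gzma over Gzmb was 4.92, 5.12 and 3.99 in old and 2.83, 2.06 and 2.89 in young libraries (exact permutation p = 0.1, adjusted over the 3 ratios 0.15). Cd8b1 over Cd8a was 0.0483, 0.0576 and 0.0501 in old and 0.123, 0.429 and 0.569 in young libraries (exact permutation p = 0.1, adjusted 0.15), where Cd8b1 had 7 to 26 counts a library. Both ratios were apart between the ages in all 6 libraries, one higher and the other lower in old. The delta over the alpha constant region, Trdc over Trac, was 0.294 ± 0.169 in old and 0.283 ± 0.0819 in young libraries (SD, n = 3 each, exact permutation p = 1). The Trdc over Trac values of old and young libraries differed by less than their spread.

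Within each age, some libraries stood higher across many of the genes. Of the 27 genes that rose, young replicate 1 was the highest young library for 20 and old replicate 3 the highest old library for 18. The 20 include Klre1, which was at 0 in every young library and so had no highest one. Old replicate 2 was the lowest old library for 15, and young replicate 2 the lowest young one for 17. The highest young sum without Lcp1, 82.9 CPM, remained far below the lowest old sum, 267 CPM.

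Promoters are shown for genes that rose in old mice, from the cytotoxic, CD3 and coreceptor groups, and for Lcp1, which did not. Each is the 250 bases before the transcript start, 5′ to 3′ on the gene's strand, from RefSeq on GRCm38.p6. Capitals mark, on either strand, the letters TGTGGT, a form of RUNX factor motifs, and AGGAAG, a form of ETS factor motifs. Other forms of these motifs were not searched for and are not marked.
Gzma, chr13:113100982-113101231, minus strand: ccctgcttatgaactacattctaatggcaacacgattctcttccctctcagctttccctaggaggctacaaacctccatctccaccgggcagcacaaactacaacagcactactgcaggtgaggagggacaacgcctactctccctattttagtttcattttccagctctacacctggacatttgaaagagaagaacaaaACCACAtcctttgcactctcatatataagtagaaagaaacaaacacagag
Cd3e, chr9:45009612-45009861, minus strand: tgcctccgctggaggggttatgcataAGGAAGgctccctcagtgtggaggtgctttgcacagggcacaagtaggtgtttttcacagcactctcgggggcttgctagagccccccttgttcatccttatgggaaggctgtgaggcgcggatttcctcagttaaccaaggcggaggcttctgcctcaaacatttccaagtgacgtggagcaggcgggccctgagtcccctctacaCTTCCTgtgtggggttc
Cd8a, chr6:71373177-71373426, plus strand: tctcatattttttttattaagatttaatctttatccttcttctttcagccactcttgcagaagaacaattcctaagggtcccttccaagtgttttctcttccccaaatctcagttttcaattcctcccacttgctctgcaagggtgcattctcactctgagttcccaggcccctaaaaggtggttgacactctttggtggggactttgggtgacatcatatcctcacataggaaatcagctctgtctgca
Lcp1, chr14:75130873-75131122, plus strand: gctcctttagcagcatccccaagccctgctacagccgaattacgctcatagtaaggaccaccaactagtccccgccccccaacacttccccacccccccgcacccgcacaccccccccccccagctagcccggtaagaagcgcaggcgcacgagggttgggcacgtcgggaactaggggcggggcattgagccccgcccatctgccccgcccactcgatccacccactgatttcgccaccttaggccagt
RUNX and ETS factors are known regulators of T cell genes. The Gzma promoter held TGTGGT 1 time and no AGGAAG, and the Cd3e promoter AGGAAG 2 times and no TGTGGT. Those shown of Cd8a and Lcp1 held neither of these exact strings of letters. Lcp1 had 2 listed starts, and the promoter of the other is not shown. The table held promoters of 20 of the 37 genes, 28 in all, some of them overlapping starts of the same gene. TGTGGT was in 10 of these 28 (35.7%), against 14.0% of all 32851 promoters, and AGGAAG in 19 of 28 (67.9%), against 29.5% of all. Overlapping starts of a gene are not separate observations, and these shares were not tested. No match of TGTGGT and match of AGGAAG shared a base in the 28 promoters. A match of letters is a description and shows no binding.

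Other genes of T and NK cells were also higher in old mice. On a list of 60 further genes, 42 could be tested, of which 25 rose, 1 fell and 16 did not pass. Of all tested genes 4.18% were called higher and 7.35% in either direction. The 42 had a median log2 fold change of 1.89, and how many passed the count filter through old libraries alone was not counted. The 60 genes summed to 260 to 290 CPM in old and 214 to 228 CPM in young, a log2 ratio of the group means of 0.30. Gimap3, a GTPase of lymphocytes, had 8.08, 6.72 and 8.25 CPM in old libraries, against 1.88, 2.22 and 1.74 CPM in young libraries (1.98 ± 0.18, adjusted p = 0.000146). Cd96, a surface receptor of T and NK cells, had 3.89, 6.10 and 6.07 CPM in old libraries, against 0.484, 0.569 and 0.896 CPM in young libraries (3.03 ± 0.30, adjusted p = 0.000241). Both had every old library above every young one. Lag3, an inhibitory receptor, had 2.80, 4.06 and 3.06 CPM in old libraries, against 0.484, 0.398 and 0.336 CPM in young libraries (3.02 ± 0.30, adjusted p = 0.000241). Itgb7, the beta subunit that pairs with Itgae, had 4.01, 3.47 and 5.25 CPM in old libraries, against 0.998, 0.739 and 0.812 CPM in young libraries (2.32 ± 0.26, adjusted p = 0.000506). Lag3 and Itgb7 showed no overlap of old with young libraries either. The constant regions of the gamma chain, Tcrg-C1 (2.23 ± 0.31, adjusted p = 0.00180) and Tcrg-C2 (2.37 ± 0.30, adjusted p = 0.00107), rose too, and as similar copies their split is uncertain. The gene that fell was Bcl11b, a transcription factor of T cells, which was abundant in young libraries. It had 74.0, 73.6 and 69.3 CPM in old libraries, against 104, 99.7 and 100.2 CPM in young libraries (-0.49 ± 0.06, adjusted p = 0.000570). Bcl11b thus made up much of the summed level of the 60 genes. The whole T cell receptor and CD3 complex had a mean sum of 7.15 CPM in young libraries. Which cells carry the Bcl11b transcript was not tested.

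Markers of other cells that a sort could hold were read in the same libraries, where 7.35% of all tested genes were called in either direction. Of 4 haemoglobin genes of red blood cells 4 rose, and they summed to 2.51 to 6.24 CPM in old and 0.398 to 0.896 CPM in young. The 4 genes together held 489 counts over all old libraries and 68 over all young ones. A haemoglobin gene as low in old as in young may thus not have been tested. How many of the 4 passed the count filter through old libraries alone was not counted. Of 7 tested macrophage and dendritic cell genes 2 rose, the integrin genes Itgax (2.95 ± 0.36, adjusted p = 0.000946) and Itgam (0.87 ± 0.21, adjusted p = 0.0309). The 17 genes of that list summed to 81.3 to 111 CPM in old and 46.5 to 71.3 CPM in young, with Fcgr1 at 0 in all libraries. Itgax is also known from intraepithelial lymphocytes. For B and plasma cells edgeR called 0 of 6 tested genes (3 at an unadjusted p under 0.05), and the list summed to 6.60 to 8.57 CPM in old and 8.39 to 9.98 CPM in young.

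Granulocyte and mast cell genes S100a8, S100a9, Ly6g, Csf3r, Cxcr2, Retnlg, Mpo and Fcer1a had no counts. The list summed to 2.32 to 3.06 CPM in old and 5.99 to 8.16 CPM in young. Of its 12 genes 2 could be tested, and Siglecf was lower in old (-1.46 ± 0.22, adjusted p = 0.00350). Which cells carry the Siglecf transcript was not tested, so this list is no measure of granulocytes. Stroma and endothelium summed to 2.91 to 3.89 CPM in old and 2.04 to 3.16 CPM in young, with Cdh5, Kdr, Pdgfra and Dcn at 0 and 0 of 2 tested genes called by edgeR (0 at an unadjusted p under 0.05). Tuft cell genes, which mark chemosensory epithelial cells, fell in 12 of 16 tested cases and summed to 132 to 140.0 CPM in old and 240.0 to 294 CPM in young. Of 10 epithelial genes edgeR called 0 (1 at an unadjusted p under 0.05), with 7348 to 7968 CPM in old and 7772 to 8143 CPM in young, and of 10 Lgr5 stem cell genes 1, Ascl2, was lower (-0.63 ± 0.11, adjusted p = 0.00745). The part of red blood cells, myeloid cells or tuft cells in the rise of lymphocyte transcripts was not tested.

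**Figure D4:**
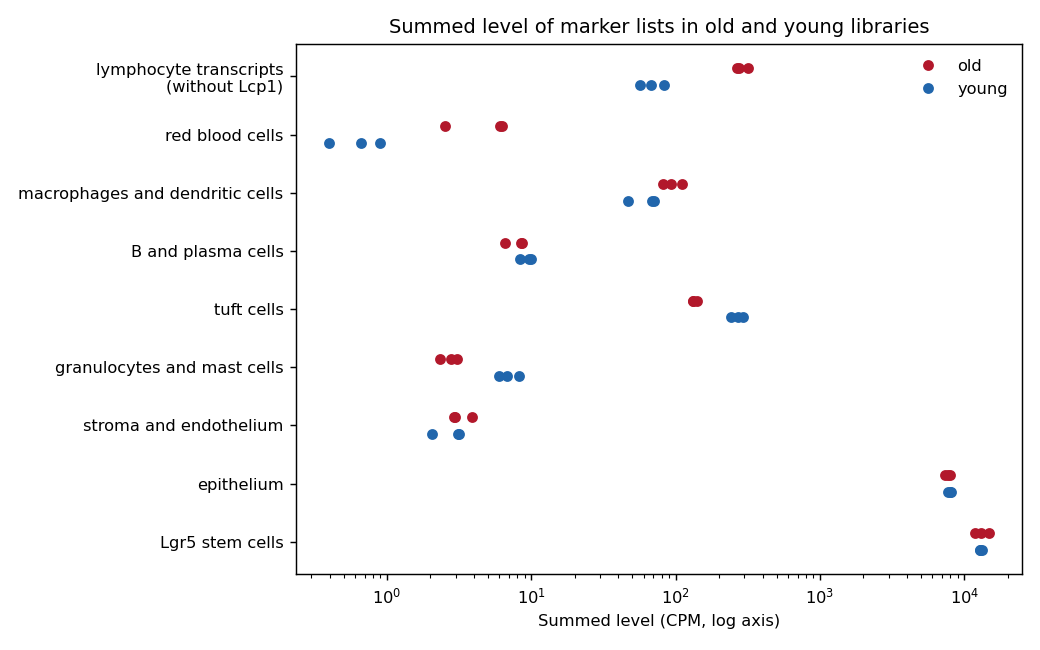
Summed level in CPM (log axis) of the lymphocyte transcripts without Lcp1 and of 8 marker lists in each old and young library (n = 3 each). Old libraries stand above young ones for lymphocyte transcripts, red blood cells, and macrophages and dendritic cells, and below them for tuft cells and for granulocytes and mast cells. Of the 12 granulocyte and mast cell genes, 2 had enough counts to test.

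In the Chrm3 experiment none of the 32 tested lymphocyte transcripts was called by edgeR in any of the 5 comparisons. In ES against NT in WT, 0 of 32 passed, against 3.32% of all 17364 tested genes, with 2 at an unadjusted p under 0.05. In ES against NT in KO the count was 0, against 0.507% of all genes, with 2 at an unadjusted p under 0.05. In KO against WT it was 0 in NT, against 4.24% of all genes, and 0 in ES, against 7.41%, with 3 and 2 genes at an unadjusted p under 0.05. In the KO minus WT difference between ES effects it was 0, against 0.0633%, with 2 at an unadjusted p under 0.05. DESeq2 and limma-voom called 0 in each of the 5 as well. The median standard error of the 32 log2 fold changes was 0.34 to 0.35 in the 4 comparisons of groups and 0.48 in the difference. The largest was 0.67 to 0.70 in the comparisons of groups and 0.94 in the difference. With n = 2 a group, changes may thus have been missed, some of those of the size seen with age among them. Klre1, Prf1, Xcl1, Cd2 and Ptprcap had too few counts to test.

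The comparison of ES with NT in WT asked what ES changed in mice given vehicle. The 32 genes had a median log2 fold change of -0.19, with 7 above and 25 below 0. Over all tested genes the median was -0.00, with 49.3% above 0. Counts of signs here and below were not tested, and genes of the same cells are not separate observations. Gzma had 22.5 and 27.2 CPM in KO ES, 16.5 and 24.5 in KO NT, 26.5 and 24.0 in WT ES, and 22.2 and 20.4 CPM in WT NT (0.25 ± 0.17, adjusted p = 0.50 for ES in WT). Its libraries overlapped across genotypes, and the WT ES pair lay above the WT NT pair. Cd69 had the largest change, -1.56 ± 0.69, adjusted p = 0.266, on 3 and 5 counts in WT ES against 16 and 10 in WT NT. Cd69 had 0.349 and 0.312 CPM in KO ES, 0.377 and 0.728 in KO NT, 0.0975 and 0.187 in WT ES, and 0.503 and 0.336 CPM in WT NT. Lcp1 was the gene nearest to passing, with 71.9 and 74.1 CPM in KO ES, 73.2 and 78.5 in KO NT, 64.4 and 61.0 in WT ES, and 71.8 and 72.0 CPM in WT NT (-0.20 ± 0.06, adjusted p = 0.130). Both WT ES libraries had the lowest Lcp1 levels of the 8.

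In KO mice the 32 genes had a median log2 fold change of 0.12 with ES. Il2rb was nearest to passing, with 2.44 and 2.35 CPM in KO ES, 1.35 and 1.64 in KO NT, 1.85 and 2.28 in WT ES, and 3.08 and 2.22 CPM in WT NT (0.69 ± 0.27, adjusted p = 0.504 for ES in KO). Nkg7 had 1.62 and 2.53 CPM in KO ES, 1.16 and 1.21 in KO NT, 1.37 and 1.12 in WT ES, and 1.88 and 1.18 CPM in WT NT (0.81 ± 0.34, adjusted p = 0.563). In both genes the KO ES pair lay above the KO NT pair, and the WT pairs overlapped. The KO minus WT difference between ES effects had a median of 0.28, with 28 genes above and 4 below 0, against 51.6% of all tested genes above 0. It was 1.05 ± 0.38, adjusted p = 0.339 for Il2rb and 1.11 ± 0.49, adjusted p = 0.432 for Nkg7. This difference shares the NT and ES libraries with the comparisons of ES in each genotype and of KO with WT, so its direction is not a separate observation.

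KO against WT addressed the receptor deletion, with tamoxifen. In NT the median log2 fold change was -0.29, with 5 genes above and 27 below 0, against 47.8% of all tested genes above 0. Cd3g had 1.90 and 2.84 CPM in KO ES, 2.18 and 2.25 in KO NT, 2.89 and 2.02 in WT ES, and 3.58 and 3.83 CPM in WT NT (-0.74 ± 0.26, adjusted p = 0.173 for KO in NT). Cd7 had 4.38 and 3.43 CPM in KO ES, 2.40 and 3.67 in KO NT, 3.41 and 5.80 in WT ES, and 4.56 and 6.28 CPM in WT NT (-0.84 ± 0.30, adjusted p = 0.177). For both, the WT NT pair was above the KO NT pair, as it was for Il2rb (-0.83 ± 0.27, adjusted p = 0.131). In ES the median was 0.02. Lcp1 was nearest to passing (0.22 ± 0.06, adjusted p = 0.0687 for KO in ES), and it passed when KO NT replicate 1 (adjusted p = 0.0415) or KO NT replicate 2 (0.0495) was left out of the shared fit. Rgs1 had 5.21 and 4.80 CPM in KO ES, 3.66 and 5.46 in KO NT, 2.41 and 4.04 in WT ES, and 3.17 and 3.23 CPM in WT NT (0.64 ± 0.27, adjusted p = 0.189). The KO ES pair was above the WT ES pair for Lcp1 and Rgs1.

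**Figure D5:**
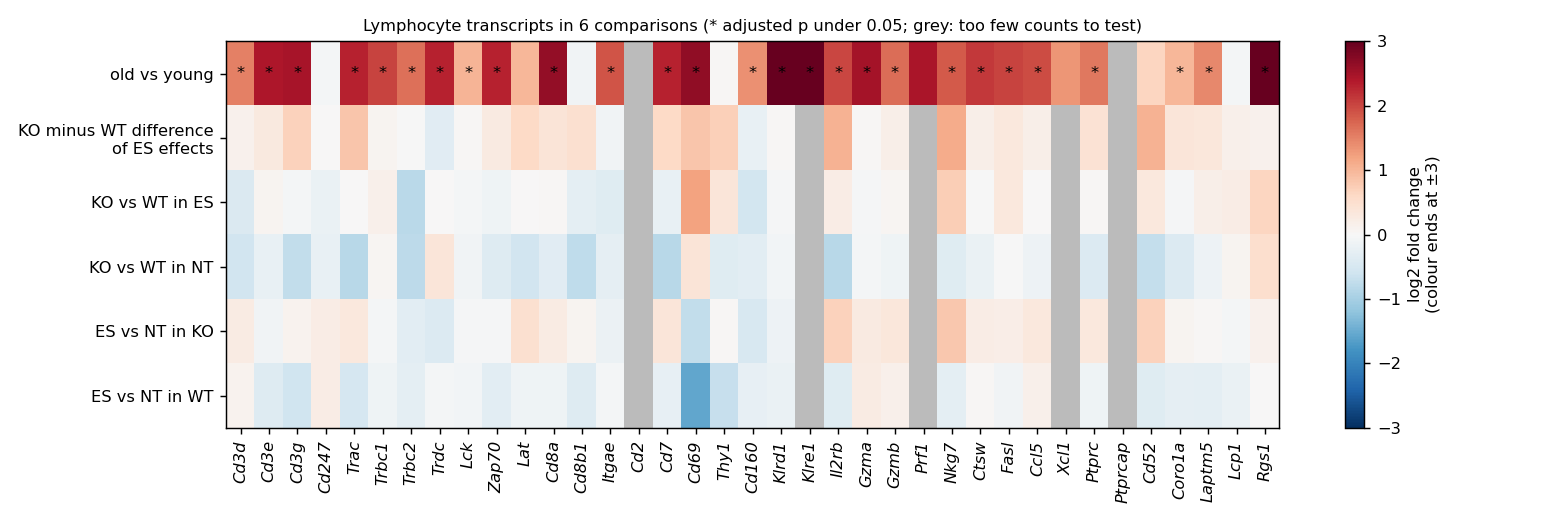
Log2 fold change of the 37 lymphocyte transcripts (columns) in 6 comparisons (rows), coloured red where higher and blue where lower in the group or effect named first, with colour ending at 3 in either direction. Stars, for an adjusted p under 0.05, stand in the row of old against young alone; grey marks genes with too few counts to test, and the Klre1 value in that row is a fitted one against young libraries at 0.

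The remaining receptor and signalling genes varied within as well as between these groups. Cd3e had 1.68 and 3.06 CPM in KO ES, 2.18 and 2.91 in KO NT, 2.54 and 1.95 in WT ES, and 3.27 and 2.62 CPM in WT NT. Trac had 0.952 and 0.567 CPM in KO ES, 0.539 and 0.668 in KO NT, 0.683 and 0.823 in WT ES, and 0.974 and 1.18 CPM in WT NT. Trdc had 1.40 and 1.33 CPM in KO ES, 1.43 and 2.19 in KO NT, 1.46 and 1.23 in WT ES, and 1.70 and 1.11 CPM in WT NT. The WT NT pair was the highest for Trac by a narrow margin, and for Cd3e the WT ES pair lay below the WT NT pair while the KO pairs overlapped. The KO ES replicates of Cd3e were far apart, on 53 and 108 counts. Cd3d had 0.857 and 0.738 CPM in KO ES, 0.593 and 0.759 in KO NT, 1.01 and 1.16 in WT ES, and 0.880 and 1.14 CPM in WT NT. Trbc1 had 0.413 and 0.766 CPM in KO ES, 0.539 and 0.698 in KO NT, 0.618 and 0.449 in WT ES, and 0.440 and 0.739 CPM in WT NT. Trbc2 had 0.571 and 0.539 CPM in KO ES, 0.781 and 0.607 in KO NT, 1.20 and 0.748 in WT ES, and 0.817 and 1.61 CPM in WT NT. Cd3d, Trbc1 and Trbc2 rest on 12 to 48 counts a library, and both WT pairs of Cd3d lay above both KO pairs. Lck had 2.48 and 3.58 CPM in KO ES, 2.99 and 3.28 in KO NT, 2.60 and 3.78 in WT ES, and 3.05 and 3.73 CPM in WT NT. Zap70 had 1.02 and 0.965 CPM in KO ES, 0.808 and 1.24 in KO NT, 1.33 and 0.823 in WT ES, and 1.54 and 1.14 CPM in WT NT. For both kinases the KO NT and WT NT ranges overlapped.

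Of the 9 tested coreceptors and surface receptors, 8 had a negative fold change for KO in NT, against a median of -0.01 over all tested genes, and none passed. Their summed level was 21.8 to 22.7 CPM in KO ES, 19.5 to 22.0 in KO NT, 20.9 to 28.0 in WT ES and 27.2 to 28.5 CPM in WT NT. Cd8a had 5.90 and 5.93 CPM in KO ES, 5.33 and 4.67 in KO NT, 5.72 and 5.84 in WT ES, and 5.84 and 6.85 CPM in WT NT. Itgae had 5.84 and 7.77 CPM in KO ES, 7.43 and 7.89 in KO NT, 7.83 and 9.69 in WT ES, and 9.55 and 8.77 CPM in WT NT. Klrd1 had 1.27 and 1.13 CPM in KO ES, 0.970 and 1.73 in KO NT, 0.813 and 1.68 in WT ES, and 1.26 and 1.58 CPM in WT NT. For Cd8a and Itgae the KO NT pair lay below the WT NT pair, while for Klrd1 these pairs overlapped. Cd160 had 0.476 and 0.624 CPM in KO ES, 0.835 and 0.698 in KO NT, 0.358 and 1.27 in WT ES, and 0.785 and 1.14 CPM in WT NT. Klre1 had 0 and 0.312 CPM in KO ES, 0 and 0.121 in KO NT, 0.163 and 0.262 in WT ES, and 0.0314 and 0.235 CPM in WT NT, and was not tested. Klre1 was at 0 in KO ES replicate 1 and KO NT replicate 1, and its highest value was in KO ES replicate 2.

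Of the cytotoxic genes, Gzmb had 9.17 and 11.2 CPM in KO ES, 7.57 and 8.59 in KO NT, 10.6 and 9.05 in WT ES, and 9.30 and 8.33 CPM in WT NT (0.16 ± 0.15, adjusted p = 0.658 for ES in WT, and 0.33 ± 0.15, adjusted p = 0.608 for ES in KO). Ccl5 had 6.03 and 6.02 CPM in KO ES, 4.42 and 5.28 in KO NT, 4.32 and 7.60 in WT ES, and 5.62 and 5.07 CPM in WT NT. Ctsw had 1.62 and 1.84 CPM in KO ES, 1.64 and 1.34 in KO NT, 1.92 and 1.57 in WT ES, and 1.45 and 1.98 CPM in WT NT. Both KO ES libraries of Gzmb were above both KO NT libraries, while the WT pairs overlapped. Fasl had 0.476 and 0.312 CPM in KO ES, 0.404 and 0.273 in KO NT, 0.228 and 0.412 in WT ES, and 0.377 and 0.302 CPM in WT NT, on 7 to 15 counts a library. Among leukocyte-wide genes, Ptprc had 6.35 and 11.3 CPM in KO ES, 6.71 and 7.56 in KO NT, 7.77 and 9.65 in WT ES, and 9.24 and 9.78 CPM in WT NT. Laptm5 had 2.10 and 2.01 CPM in KO ES, 1.99 and 2.03 in KO NT, 1.89 and 1.76 in WT ES, and 2.04 and 2.45 CPM in WT NT. Coro1a had 1.14 and 2.01 CPM in KO ES, 1.37 and 1.61 in KO NT, 1.37 and 1.91 in WT ES, and 2.54 and 1.41 CPM in WT NT. The KO ES replicates of Ptprc were further apart than any other pair, and Laptm5 varied little over the 8 libraries.

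Without Lcp1, the summed level was 91.6 and 109 CPM in KO ES, 79.2 and 96.8 in KO NT, 97.3 and 104 in WT ES, and 105 and 102 CPM in WT NT. The lowest library was KO NT replicate 1 and the highest KO ES replicate 2, and only the KO NT pair lay wholly below the WT NT pair. Of the 60 further T and NK cell genes, 39 could be tested and 1 was called in the Chrm3 experiment. This was Bcl11b, lower with ES in WT (-0.32, adjusted p = 0.0321), where 3.32% of all tested genes were called in either direction. Which cells carry the Bcl11b transcript was not tested here either. Tuft cell genes moved in these libraries, with 11 of 16 lower in KO than WT in NT and 8 lower in ES. Of all tested genes 4.24% were called in either direction in NT and 7.41% in ES. The tuft cell genes summed to 69.1 to 75.8 CPM in KO ES, 48.9 to 61.1 in KO NT, 135 to 140.1 in WT ES and 120.0 to 127 CPM in WT NT. Of the 10 Lgr5 stem cell genes, 8 were lower with ES in WT, against 3.32% of all tested genes called in either direction. In KO against WT, 1 (Slc12a2) was lower in NT, against 4.24%, and 4 were higher in ES, against 7.41%. The stem cell genes summed to 14016 to 14734 CPM in KO ES, 14561 to 16313 in KO NT, 11004 to 11369 in WT ES and 14028 to 14348 CPM in WT NT. In KO against WT in NT, Igha, the constant region of immunoglobulin A (-1.93 ± 0.37, adjusted p = 0.0167), and Siglecf (-1.61 ± 0.30, adjusted p = 0.0147) were lower. B and plasma cell genes summed to 9.71 to 11.6 CPM in KO ES, 4.86 to 4.96 in KO NT, 6.24 to 9.13 in WT ES and 9.47 to 14.0 CPM in WT NT. Macrophage and dendritic cell genes summed to 102 and 102 CPM in KO ES, 70.4 to 77.4 in KO NT, 93.4 to 97.9 in WT ES and 73.0 to 78.5 CPM in WT NT, so that in each genotype the summed level of the ES pair was above that of the NT pair. Of the 6 tested genes, 6 had a positive fold change with ES in WT, but 3 a positive and 3 a negative one in KO. By edgeR 0 of them were called with ES in either genotype, and 1 was lower in KO than WT in ES (adjusted p = 0.0200). The part of these cells in the values of the lymphocyte transcripts was not tested. Red blood cell genes summed to 0.296 to 0.952 CPM in the 8 libraries.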

How the data were processed

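The authors deposited unnormalized gene counts under Ensembl identifiers, with the 8 Chrm3 libraries in 1 table and the 6 ageing libraries in another. Per the labels' protocols, RNA was extracted with Trizol, 1 µg of total RNA entered each library, and strand-specific TruSeq libraries of polyadenylated RNA were made. Per the submitters' processing notes, the genome was mm10 and FastQC 0.11.2 was used. No source used here names the aligner, or the counting tool and its strand setting. Columns named Ctrl were read as NT, since both names mark the libraries without ES.

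Each table was fitted on its own in edgeR 4.0.16 (R 4.3.3): filterByExpr defaults (minimum count 10), TMM factors, 1 mean per group, a quasi-likelihood F test, and Benjamini-Hochberg adjustment over all tested genes (17364 and 16807). Standard errors were derived from the fold change and its F statistic and are approximate. CPM used TMM-scaled library sizes, and RPKM divided CPM by the union of exons in GENCODE M21. Where a symbol had 2 gene IDs, that with the higher total was taken. The code was tested on simulated data. Alternatives were RLE factors, no count filter, a filter of 1 CPM, DESeq2 1.42.0, limma-voom (limma 3.58.1), a replicate block, fits to just the pair of groups at hand, and dropping each library in turn. At these depths, genes under 100 counts carry a large counting error, and 3 counts a library was taken as the floor for a gene at 0.

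The 37 genes, the other lists and the tests were chosen with earlier results of these data known, so no test over a list as a whole is given. The naming rule gave values in every library for each of the 37 genes that passed in any comparison, and for Cd3e, Cd3g, Cd8a, Itgae, Ptprc, Gzma, Gzmb, Ccl5, Trac and Trdc. From the list of other T and NK cell genes it took up to 4 per comparison and direction with the smallest adjusted p, and from the remaining lists at most 4 passing members. Tcrg-C1, Tcrg-C2, Cd4, Ncr1, Klrb1c and members that did not pass were named after their values were seen. The list of innate lymphoid cell genes is not reported here.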

Additional observations from a re-analysis of the deposited data

How the results depend on the processing

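In old against young, 27 genes were called, and 27 with RLE factors, 22 of 37 with no count filter, 26 of 28 with a filter of 1 CPM, 28 with DESeq2, 28 with limma-voom and 22 to 27 with a library left out. Of the 27, 20 were called in all 12 alternatives (Fasl could be tested in 11), and no fold change of a called gene changed sign. Cd3d, Trbc1, Trbc2, Zap70, Nkg7, Fasl and Coro1a lost the call in at least 1 alternative, and Prf1 and Lat gained it in some. In the Chrm3 comparisons the count was 0 under every alternative, save for 1, Lcp1 in KO against WT in ES, without either KO NT library (range 0 to 1).

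The log2 ratio of summed levels was 1.43 for old against young, 2.06 without Lcp1, 2.11 without leukocyte-wide genes, and 1.35 to 1.49 with a library left out. For ES in WT it was -0.10, and -0.019 without leukocyte-wide genes, -0.040 without Lcp1 and -0.13 as a mean of log2 values (-0.12 to -0.09 with a library left out). For ES in KO it was 0.08, and 0.19 both without leukocyte-wide genes and without Lcp1 (-0.01 to 0.19). For KO in NT it was -0.10, and -0.25 without leukocyte-wide genes, -0.24 without Lcp1 and -0.20 as a mean of log2 values (-0.20 to -0.00), and for KO in ES 0.09, and -0.042 without leukocyte-wide genes and -0.00 without Lcp1 (0.00 to 0.17). The difference of the ES effects was 0.18, and 0.21 to 0.23 under those alternatives (0.09 to 0.29).

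Replicate numbers are shared between groups, but deviations of same-numbered libraries correlated by only -0.01 to 0.17, not all above 0.1, so the numbers were not taken as pairs. With a replicate block 28 genes were called in old against young and 0 in each Chrm3 comparison. Genes with few counts in young libraries, such as Klre1, Klrd1, Fasl and Cd69, limit how closely the size of their change is known.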
